A study of Mus musculus with 100 samples.

Results

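The 10 basement membrane genes of endoderm described here are Lama1, Lamb1 and Lamc1 (laminin chains), Col4a1 and Col4a2 (collagen IV chains), Nid1 and Nid2 (nidogens), Hspg2 (the proteoglycan perlecan), Sparc (a collagen-binding glycoprotein) and Thbd (thrombomodulin, a receptor on the cell surface). They were taken as a fixed list of names from 23109 gene-level entries, and all 10 were found in each of the 37 RNA libraries. Each level is in counts-per-million (CPM), the reads of the gene's most-read transcript scaled to the library's gene-level total.

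A basement membrane is a thin sheet of extracellular matrix under epithelia and around vessels and muscle. Laminins, built from an alpha, a beta and a gamma chain, polymerise at the cell surface, collagen IV forms a second network, and nidogens and perlecan join the networks. Parietal endoderm, an extraembryonic cell type of the mouse, secretes a very thick basement membrane called Reichert's membrane, and its known products include the Lama1, Lamb1 and Lamc1 chains, collagen IV and Sparc. Thbd is known as a marker of the same cells.

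MLL3 and MLL4 (genes Kmt2c and Kmt2d) are enzymes that methylate lysine 4 of histone H3 at enhancers, and the study asks about that enzymatic activity. The RNA libraries fall into 18 groups. The cultured cells are mouse embryonic stem cells (ESCs) of genotype Mll3-/-;Mll4flox/flox, termed flox, or Mll3-/-;Mll4KI/KI, termed KI, so both lack Mll3 and they differ in Mll4. KI is not spelled out in the labels, and the KI cells are the 2 clones 27 and 48. A further RNA sample of neural day 8, with DKO in its title, was not analysed.

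ESCs (day 0) were kept in 2i and LIF, and embryoid bodies (EBs), which are aggregates grown without LIF, were taken at days 4 and 10; flox has 1 library and KI has 2 in each of these groups. Neural cultures received retinoic acid after day 4 and are labelled neural progenitor cells at day 8 and neurons at day 16. Extraembryonic endoderm (ExEn) cultures were grown for 5 days with Activin A and a low dose of retinoic acid. Trophectoderm (TE) cultures carried a doxycycline-inducible T7-tagged CDX2 and were grown for 6 days. Each of the neural, ExEn and TE groups has 2 libraries. Whole embryos of embryonic days 8.5 and 9.5 (E8.5, E9.5), 3 per group, were Mll3flox/KI;Mll4flox/+;Sox2-Cre (control) or carried Mll4flox/KI with the other alleles the same (KI). Sox2-Cre acts in the epiblast, so floxed alleles in extraembryonic cells may be kept, and the labels do not say which membranes stayed with an embryo.

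Libraries held 18908148 to 59880727 gene-level reads, and a count of 0 allows up to 3 reads, or 0.159 CPM in the shallowest library. The ESC, EB and neural samples are labelled poly(A) RNA, and the ExEn, TE and embryo samples total RNA, although the protocol given for all of them names poly(A) selection. The labels do not settle which holds, so levels across these kinds are set side by side and not tested. Kmt2c ran from 27.6 to 99.4 CPM and Kmt2d from 149 to 334 CPM over the 37 libraries. Whole-transcript counts show neither a KI allele nor a deletion of part of a gene, and so do not check the genotypes. The 2 flox libraries of neural day 8 differed by only 1.50 times the counting noise (chi-square per degree of freedom), against 2.76 or more in the other pairs, and calls that were lost without either are named with the results. Nothing in the labels says that libraries of a group came from separate cultures, so p-values measure the spread between these libraries.

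Of the 10 members, 9 had their highest group mean in ExEn cultures. The flox ExEn cultures had the highest group mean for Lama1, Lamb1, Lamc1, Col4a1, Nid1 and Sparc, and the KI ExEn cultures for Col4a2, Hspg2 and Thbd. Nid2 was highest in the single flox EB day 10 library (966 CPM). From the lowest to the highest group mean the range was widest for Col4a2 (538-fold), Col4a1 (346-fold) and Lama1 (109.6-fold), and narrowest for Lamc1 (15.4-fold). As a check of the labels, 8 endoderm regulators summed to 901 to 927 CPM in flox ExEn, 232 to 237 CPM in KI ExEn and 82.4 to 84.8 CPM in flox TE. The 8 trophoblast markers summed to 3129 to 3201 CPM in flox TE but to 3089 to 3099 CPM in flox ExEn too, so as a sum they did not set TE apart. Where this list is given below, it is therefore a list name and not a measure of trophoblast cells. In ESCs 6 pluripotency markers summed to 4618 CPM in flox and 3746 to 4047 CPM in KI.

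**Figure D1:**
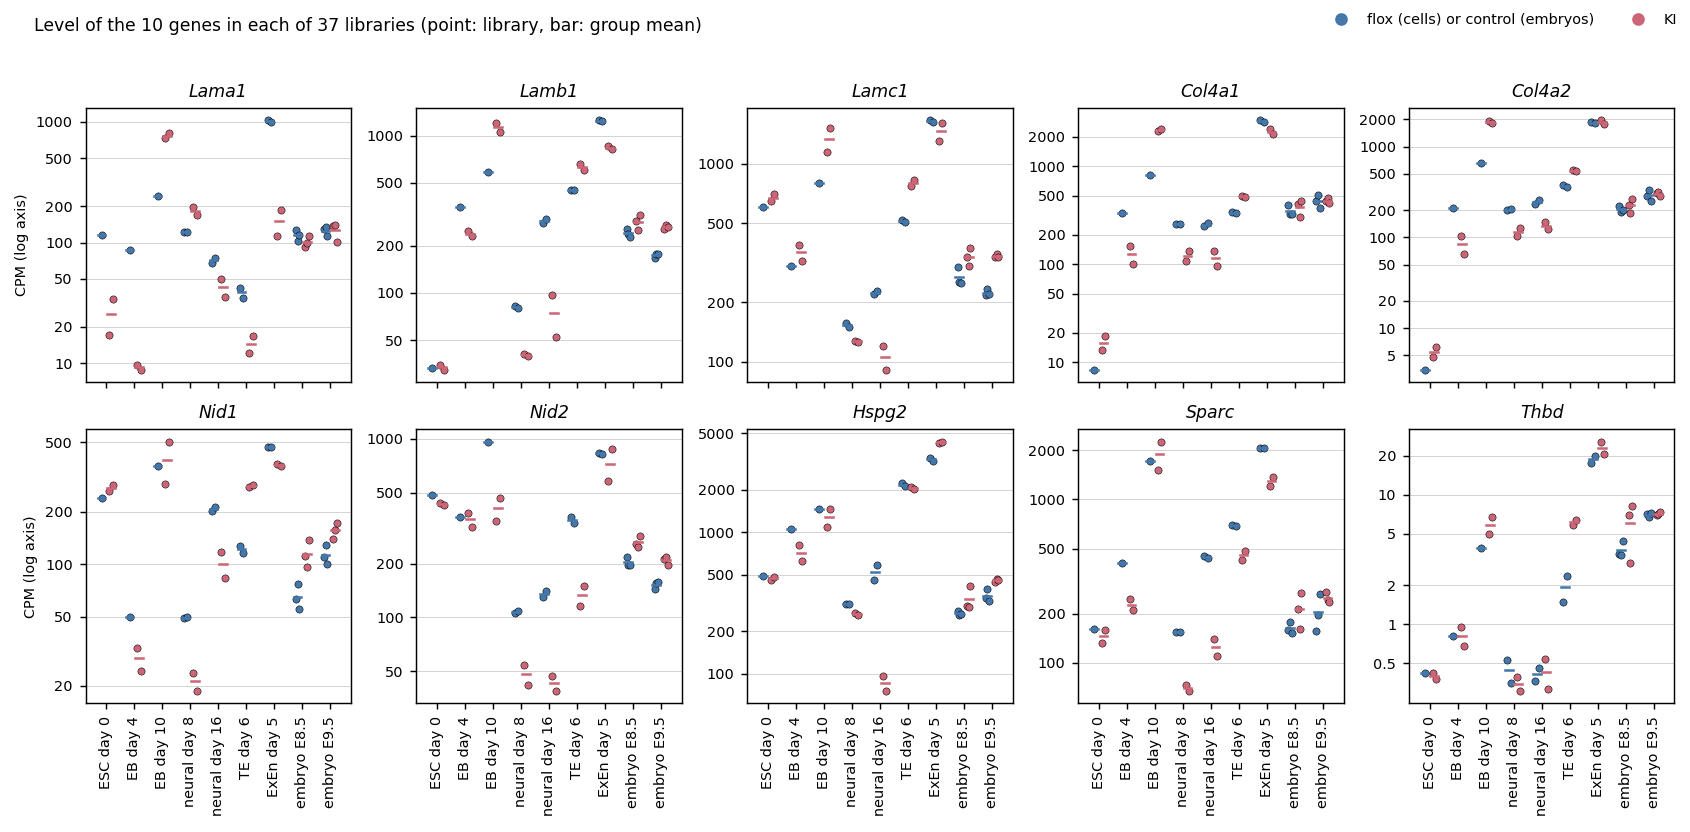
CPM of each gene (log axis, different in each panel) in each library, by culture or embryo stage; points are libraries, bars group means, blue flox or control, red KI. In ExEn cultures Lama1 lay at 1003 and 1029 CPM in flox and at 114 and 186 CPM in KI, while Col4a2 overlapped between the genotypes.

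The laminin chains differed in where they were low. Lama1, the alpha chain typical of parietal endoderm, was lowest in KI EB day 4 (9.69 and 8.87 CPM in clones 27 and 48) and in KI TE (12.2 and 16.8 CPM). Lamb1, a widely used beta chain, was lowest in ESCs (33.3 CPM in flox, 35.0 and 32.6 CPM in KI). Lamc1, the gamma chain of most laminins, was high in ESCs (605 CPM in flox, 649 and 698 CPM in KI) and lowest in KI neural day 16 (120.3 and 91.4 CPM). Per transcript length (RPKM, reads per kilobase scaled to library size), Lamb1 was 0.0616 to 0.0726 of Lamc1 in the 3 ESC libraries and near 1 in flox ExEn (0.998 and 1.01).

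Both collagen IV genes were low but detected in ESCs, with 66 or more reads in each library. Col4a1 was 8.41 CPM in flox and 13.2 and 18.6 CPM in KI ESCs, and Col4a2 was 3.49 CPM in flox and 4.75 and 6.26 CPM in KI. They were highest in ExEn, at 2955 and 2865 CPM in flox for Col4a1. Nid1 and Nid2, which bridge laminin and collagen IV, were already expressed in ESCs, Nid1 at 240.2 CPM and Nid2 at 483 CPM in flox. Hspg2 (492 CPM) and Sparc (162 CPM) were too. Thbd was the rarest member, with as few as 8 reads in flox ESCs (0.423 CPM), and ran from 0.307 CPM in KI neural day 8 to 25.8 CPM in KI ExEn.

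Sorted by group mean, neighbours often could not be separated: of the 17 neighbouring pairs of groups, between 6 (Lamb1, Lamc1, Hspg2) and 10 (Sparc, Thbd) had overlapping libraries. For Lama1 the 2 highest groups, flox ExEn and KI EB day 10 (734 and 804 CPM), did not overlap with each other or with the third.

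Col4a1 and Col4a2 are known as a head-to-head gene pair on mouse chromosome 8, which the RefSeq promoter table (GRCm38.p6) shows with overlapping starts: Col4a2 on the + strand at 11312805 and Col4a1 on the - strand at 11312826, 22 bases inclusive. The stretch chr8:11312801-11312830 is printed on the + strand because both genes were called in the same direction between genotypes in TE, EB and neural cultures, though not in ExEn, with the 22 shared bases in capitals. The submitters' processing notes name mm9, so these coordinates are not those of the reads.
Col4a1-Col4a2 start: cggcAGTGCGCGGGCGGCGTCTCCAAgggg

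Of the 10 members, 6 had an entry in that table (Lamb1, Col4a1, Col4a2, Nid1, Hspg2 and Sparc). The 250 bases before the start are printed 5′ to 3′ on the gene's strand for 4 of them, chosen because in ExEn cultures Lamb1, Nid1 and Sparc were lower in KI and Hspg2 was higher. Capitals mark the GC box, whose letters are GGGCGG, and the box with the letters CCAAT, both searched on either strand.
Lamb1 (chr12:31265043-31265292, + strand): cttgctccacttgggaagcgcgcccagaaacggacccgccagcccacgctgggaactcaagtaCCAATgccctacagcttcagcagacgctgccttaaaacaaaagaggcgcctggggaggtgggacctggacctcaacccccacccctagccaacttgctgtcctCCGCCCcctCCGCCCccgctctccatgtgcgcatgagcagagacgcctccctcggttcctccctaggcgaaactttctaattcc
Nid1 (chr13:13437352-13437601, + strand): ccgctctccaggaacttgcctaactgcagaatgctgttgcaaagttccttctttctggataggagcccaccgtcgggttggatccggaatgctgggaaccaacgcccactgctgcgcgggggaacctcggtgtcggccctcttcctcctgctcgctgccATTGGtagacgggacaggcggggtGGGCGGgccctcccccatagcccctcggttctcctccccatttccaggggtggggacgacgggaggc
Hspg2 (chr4:137468553-137468802, + strand): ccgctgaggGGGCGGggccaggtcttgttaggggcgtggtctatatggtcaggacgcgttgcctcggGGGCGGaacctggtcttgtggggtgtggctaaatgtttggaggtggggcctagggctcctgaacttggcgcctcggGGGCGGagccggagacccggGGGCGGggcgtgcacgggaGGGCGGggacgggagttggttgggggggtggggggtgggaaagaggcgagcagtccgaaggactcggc
Sparc (chr11:55420081-55420330, - strand): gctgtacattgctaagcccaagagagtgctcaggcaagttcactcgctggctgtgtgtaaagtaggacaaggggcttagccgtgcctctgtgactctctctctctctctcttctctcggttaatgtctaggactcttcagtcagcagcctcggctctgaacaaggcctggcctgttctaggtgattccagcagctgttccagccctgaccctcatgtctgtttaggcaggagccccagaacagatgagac

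Hspg2 had 5 GC boxes in this window, Lamb1 and Col4a2 had 2 each, Nid1 had 1, and Col4a1 and Sparc had none. A GC box was present in 32.7% of all 32851 promoter windows of this length in the table. CCAAT was found once each in Lamb1, Nid1, Col4a1 and Col4a2, and in 33.8% of all windows. GATAA, the core of the sites bound by GATA factors, was found in 0 of these 6 windows and in 22.6% of all, and TATAAA in 0 of 6 and in 12.4% of all. A match is a description of the letters, and a missing one says only that they are not in this window.

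The first tested comparison set ExEn against TE cultures of the same genotype, by edgeR's quasi-likelihood test with Benjamini-Hochberg adjustment over all genes tested; a gene with an adjusted p below 0.05 is termed called. All 10 members were called higher in ExEn than in TE in flox, and all 10 in KI. Of all 15532 genes tested, 32.5% were called higher and 32.2% lower in flox, and 30.8% higher and 32.3% lower in KI. Lama1 differed most in flox, at 1029 and 1003 CPM in ExEn against 42.4 and 35.0 CPM in TE, a log2 difference of 4.81 ± 0.33 (SE, 2 libraries per group, adjusted p = 0.00025). Here and below, SE is the absolute log2 difference divided by the square root of the test's F statistic. Thbd (17.7 and 20.1 against 1.48 and 2.38 CPM) and Col4a1 (2955 and 2865 against 342 and 330.5 CPM) came next, with log2 differences of 3.37 ± 0.22 and 3.20 ± 0.05. Hspg2, already at 2228 and 2114 CPM in flox TE, differed least (0.68 ± 0.04). The median log2 difference of the members was 1.90 in flox and 1.67 in KI, against -0.01 and -0.03 over all genes. The members were named for endoderm, so their direction here is not independent of the choice.

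In ExEn cultures the KI cells had less Lama1 and, by smaller amounts, less Lamb1, Col4a1, Nid1 and Sparc, while Hspg2 was higher. Of the 10 members 5 were called lower and 1 higher, where 17.4% of all genes tested were called lower and 18.1% higher. The members' median log2 difference was -0.30, and that of all genes 0.00. Lama1 fell from 1029 and 1003 CPM in flox to 114 and 186 CPM in clones 27 and 48, a log2 difference of -2.79 ± 0.30 (adjusted p = 0.0029), or 6.91-fold lower. The genotypes did not overlap. In bulk RNA, fewer cells of a type and less RNA per cell cannot be told apart, here and in all comparisons that follow.

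The other laminin chains of the embryonic trimer changed much less. Lamb1 was 1251 and 1239 CPM in flox and 856 and 818 CPM in KI (-0.60 ± 0.05, adjusted p = 3.6e-07), without overlap. Lamc1 was 1653 and 1616 CPM in flox and 1307 and 1597 CPM in KI (-0.20 ± 0.09, adjusted p = 0.12) and was not called. Clone 48 lay close to flox, and with clone 48 left out Lamc1 was called (-0.36, adjusted p = 7.4e-06), as it was by DESeq2 (-0.21, adjusted p = 0.029).

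The makeup of the alpha chains differed accordingly. Within a library, and per transcript length (RPKM), Lama1 held 53.5% and 53.4% of the summed RPKM of the 5 laminin alpha chains in flox ExEn. In KI ExEn it held 7.83% and 11.9%. Lama5, an alpha chain of many mature epithelia, held 46.0% and 46.2% in flox and 90.6% and 86.6% in KI. The summed alpha chains stayed near the gamma chain in both, at 0.932 and 0.931 of Lamc1 RPKM in flox and 0.894 and 0.784 in KI.

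**Figure D2:**
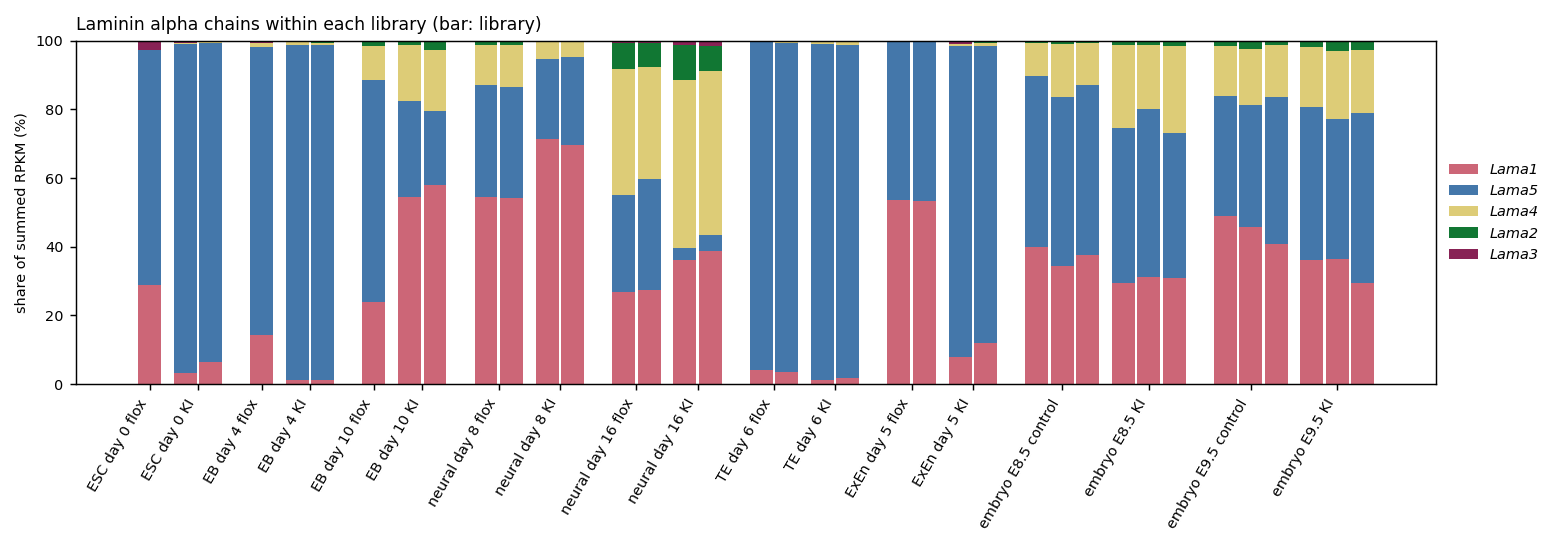
Share of each laminin alpha chain in the summed RPKM of the 5 chains (percent, linear axis); each bar is a library, grouped by culture or embryo stage and genotype. Lama1 (red) fills 53.4% and 53.5% of the flox ExEn bars and 7.83% and 11.9% of the KI ExEn bars, and 71.4% and 69.7% of the KI neural day 8 bars.

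Among the other members in ExEn, Col4a1 was 2955 and 2865 CPM in flox and 2396 and 2133 CPM in KI (-0.39 ± 0.05, adjusted p = 3.6e-05), without overlap. Its partner Col4a2 overlapped, at 1866 and 1826 CPM against 1955 and 1799 CPM (-0.01 ± 0.04, adjusted p = 0.94), so the RPKM ratio of Col4a1 to Col4a2 was 1.54 and 1.52 in flox and 1.19 and 1.15 in KI. Nid1 fell from 474 and 469 CPM to 374 and 368 CPM (-0.37 ± 0.05). Nid2 overlapped (839 and 821 against 578 and 873 CPM) and was not called (-0.22 ± 0.24, adjusted p = 0.54), but without clone 48 it was (-0.56, adjusted p = 0.029).

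Hspg2, which carries the heparan sulfate chains of the sheet, was 3358 and 3191 CPM in flox and 4285 and 4362 CPM in KI (0.37 ± 0.04, adjusted p = 8.7e-06). Sparc fell from 2071 and 2051 CPM to 1209 and 1377 CPM (-0.70 ± 0.07, adjusted p = 1.6e-05). Thbd was 17.7 and 20.1 CPM in flox and 25.8 and 20.7 CPM in KI (0.27 ± 0.17, adjusted p = 0.26), and was not called although the libraries did not overlap.

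Of 8 other laminin chains 6 were called higher in KI ExEn (median 1.03). All 4 other collagen IV chains were called higher (median 1.36, Col4a3 2.11 ± 0.64), as were 8 of 11 matrix receptors (median 0.93, the integrin chain Itga6 1.96 ± 0.06). Of 13 genes that modify or export collagen 9 were called lower (median -0.36, the prolyl hydroxylase P3h2 -2.97 ± 0.26). In the list of 10 matrix proteases and inhibitors 4 rose and 3 fell, and of 17 further basement membrane and matrix genes 5 rose and 6 fell.

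Markers of endoderm moved with these differences. All 8 endoderm regulators were called lower in KI ExEn (median -3.11), with Gata4 at -3.44 ± 0.15, Sox17 at -2.78 ± 0.17 and Gata6 at only -0.30 ± 0.09. Of 6 parietal endoderm markers 5 were called lower and 1, Fst, higher (1.23 ± 0.27), with a median of -1.31. Srgn fell most (-8.88 ± 0.42). Pth1r, the receptor for parathyroid hormone-related peptide, was at -2.83 ± 0.21, Pdgfra at -0.67 ± 0.17 and Plat, tissue plasminogen activator, at -0.65 ± 0.10. Visceral endoderm markers summed to 1072 to 1099 CPM in flox and 16.2 to 16.8 CPM in KI, where 2 of the 8 were at 0 in both libraries. Fibroblast markers summed to 1983 to 2063 CPM in flox and 345 to 524 CPM in KI. The trophoblast list had genes called in both directions, with Tfap2c higher (2.14 ± 0.44) and Eomes lower (-2.74 ± 0.17). The part of these markers in the members' differences was not tested.

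In TE cultures the KI cells had more Lamb1, Lamc1, Col4a1, Col4a2, Nid1 and Thbd and less Lama1, Nid2 and Sparc. That is 6 members called higher and 3 lower, where 26.7% of all genes tested were called higher and 24.2% lower, with a median log2 difference of 0.55 against 0.01 for all genes. Lama1 fell from 42.4 and 35.0 CPM to 12.2 and 16.8 CPM (-1.38 ± 0.33, adjusted p = 0.027). Lamb1 rose from 453 and 451 CPM to 657 and 600.1 CPM (0.51 ± 0.05), and Lamc1 from 521 and 506 CPM to 769 and 822 CPM (0.66 ± 0.09). For each of these chains the genotypes did not overlap.

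Collagen IV rose as a pair in TE: Col4a1 from 342 and 330.5 CPM to 504 and 485 CPM (0.59 ± 0.05), and Col4a2 from 378 and 359 CPM to 554 and 537 CPM (0.60 ± 0.05). The nidogens went opposite ways. Nid1 rose from 128 and 116 CPM to 279 and 283 CPM (1.24 ± 0.05, adjusted p = 4.5e-10), and Nid2 fell from 363 and 339.8 CPM to 116 and 150.2 CPM (-1.37 ± 0.25, adjusted p = 0.011). Their RPKM ratio, Nid1 to Nid2, was 0.284 and 0.276 in flox and 1.94 and 1.52 in KI.

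Sparc fell from 697 and 688 CPM in flox TE to 426 and 483 CPM in KI (-0.58 ± 0.07), and Thbd rose from 1.48 and 2.38 CPM to 5.89 and 6.39 CPM (1.69 ± 0.22). Hspg2 was not called (2228 and 2114 against 2099 and 2003 CPM, -0.05 ± 0.04, adjusted p = 0.33), but was without clone 27 (-0.11, adjusted p = 0.040). The call on Lama1 was lost when any 1 of the 4 TE libraries was left out (adjusted p 0.058 to 0.14), and that on Nid2 without clone 27 (0.067).

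Other markers also differed between the TE genotypes. Pluripotency markers summed to 930.4 to 956 CPM in flox and 256 to 352 CPM in KI, with 6 of 6 called lower, and trophoblast markers to 3129 to 3201 CPM and 5284 to 5472 CPM, with 6 of 7 tested called higher. Fibroblast markers summed to 335 to 338 CPM and 82.7 to 137 CPM. Among matrix genes, Col18a1 fell (-2.23 ± 0.05), and of the other collagen IV chains 1 rose and 2 fell. The part of these markers was not tested.

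The difference between KI and flox was itself compared between ExEn and TE. For 6 members the KI difference was lower in ExEn than in TE, namely Lamb1 (-1.11 ± 0.07), Lamc1 (-0.86 ± 0.12), Col4a1 (-0.98 ± 0.07), Col4a2 (-0.61 ± 0.06), Nid1 (-1.61 ± 0.07) and Thbd (-1.42 ± 0.29), and for Hspg2 it was higher (0.42 ± 0.06). Of all genes tested 18.3% had a called lower and 17% a called higher difference. Lama1 (-1.41 ± 0.44, adjusted p = 0.075) and Nid2 (1.15 ± 0.34, adjusted p = 0.067) were not called by edgeR. Both were called by DESeq2 (Lama1 -1.39, adjusted p = 0.0060; Nid2 1.16, adjusted p = 0.0050) and without the ExEn library of clone 27 or of clone 48 (adjusted p 0.0036 to 0.020 for Lama1 and 0.0033 to 0.016 for Nid2). With the replicate block both were called as well (Lama1 -1.43, adjusted p = 6.3e-08; Nid2 1.13, adjusted p = 1.1e-08). That fit pairs clones 27 and 48, and also the flox libraries by number, whose deviations in TE and ExEn did not go together (correlation -0.0079). For Sparc, lower in KI in both cultures, the difference was not called (-0.13 ± 0.09, adjusted p = 0.32), but without ExEn clone 48 it was (-0.20, adjusted p = 0.026).

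**Figure D3:**
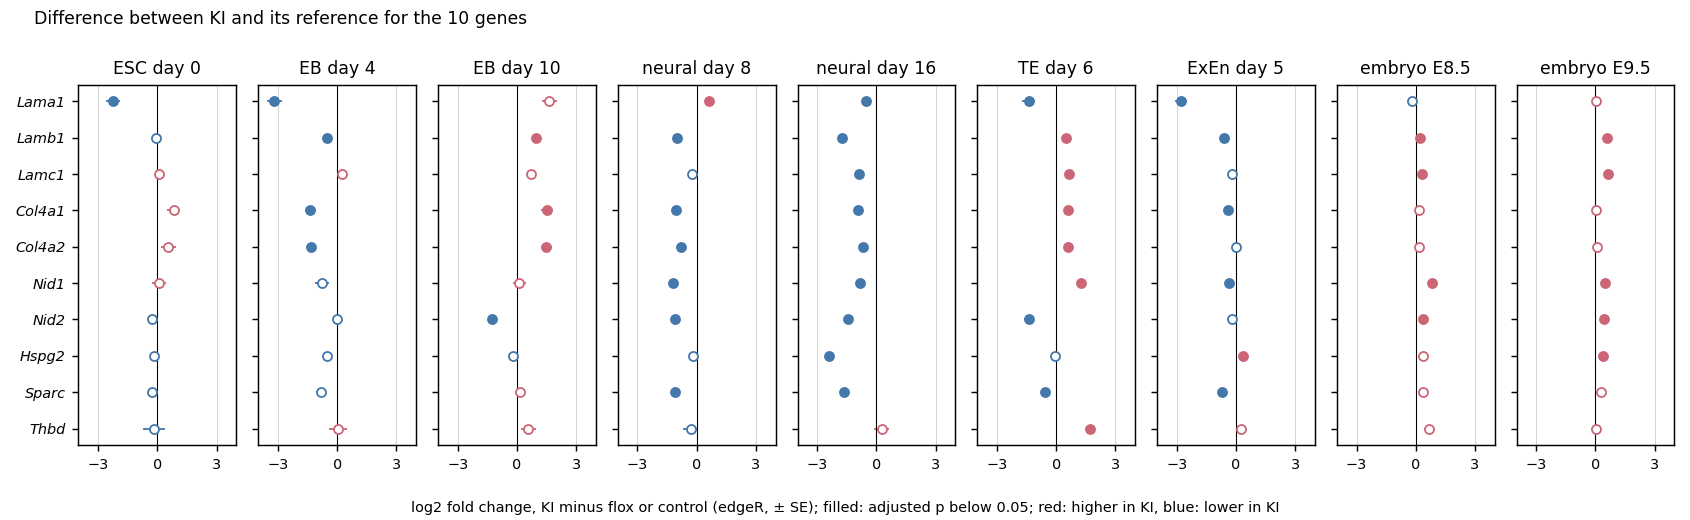
Log2 fold change of KI minus flox (cells) or minus control (embryos) for each gene, by edgeR. Points are estimates, bars are SE taken from the test's F statistic, and filled points have an adjusted p below 0.05. Red is higher and blue lower in KI. Lama1 is at -2.26 in ESCs, -3.18 in EB day 4 and -2.79 in ExEn, and at 0.62 in neural day 8.

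In the EB course Lama1 and the collagen IV pair were lower in KI than in flox at day 4, and Lamb1 and the collagen IV pair were higher at day 10. The flox reference is 1 library a day, so these tests take the spread from the KI clone pairs, and the lone flox library is assumed to vary like them. In ESCs 1 of 10 members, Lama1, was called lower (6.01% of all genes lower, 5.89% higher): 114 CPM in flox, 17.1 and 33.8 CPM in KI (-2.26 ± 0.35, adjusted p = 0.017). The value was -2.85 without clone 48 and -1.85 without clone 27, fits that set 1 library against 1 and take all spread from the other days.

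At EB day 4 the members called lower were 4 of 10, against 5.05% of all genes lower and 2.66% higher. Lama1 was 86.0 CPM in flox and 9.69 and 8.87 CPM in KI (-3.18 ± 0.37, adjusted p = 0.0088). Lamb1 was 350.3 CPM in flox and 247 and 229 CPM in KI (-0.53 ± 0.11, adjusted p = 0.030). Col4a1 was 334 CPM against 153 and 99.8 CPM (-1.37 ± 0.27, adjusted p = 0.044), and Col4a2 211 CPM against 103 and 65.3 CPM (-1.30 ± 0.26, adjusted p = 0.040). In each of these 4 genes both clones lay below flox.

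The EB day 4 calls rest on few libraries: with clone 48 left out 0 members were called by edgeR, and with clone 27 left out 2, the collagen IV genes. Over all 3 libraries 6 of the 10 members had an unadjusted p below 0.05, and DESeq2 called 4. Of the parietal endoderm markers 3 of 6 were called lower, Pdgfra at -2.58 ± 0.20 and Pth1r at -2.35 ± 0.12, and Gata4 was lower at -1.15 ± 0.14. Trophoblast markers summed to 2249 CPM in flox and 822 to 887 CPM in KI, with 3 of 7 tested called lower (Hand1 -4.71 ± 0.26). Endothelial markers summed to 227 CPM in flox and 34.1 to 39.3 CPM in KI, with 1 of 8 called in each direction, and pluripotency markers to 737 CPM and 1299 to 1369.9 CPM. Their part in the differences was not tested.

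By EB day 10 the direction was the opposite for several members. Lamb1 was 586 CPM in flox and 1202 and 1052 CPM in KI (0.94 ± 0.11, adjusted p = 0.0037), Col4a1 807 CPM against 2308 and 2419.9 CPM (1.55 ± 0.30, adjusted p = 0.034), and Col4a2 664 CPM against 1899 and 1846 CPM (1.49 ± 0.28, adjusted p = 0.028). Nid2 was the member called lower, 966 CPM in flox and 349 and 469 CPM in KI (-1.24 ± 0.18, adjusted p = 0.010). So 3 were called higher and 1 lower, against 5.49% and 4.96% of all genes.

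Lama1 at EB day 10 was 245 CPM in flox and 734 and 804 CPM in KI, a log2 difference of 1.65 ± 0.38 that was not called (adjusted p = 0.053 by edgeR, 0.0086 by DESeq2). Lamc1 (800.0 CPM against 1145 and 1507.6 CPM) had an adjusted p of 0.058 by edgeR. It was called by DESeq2 (0.72, adjusted p = 0.0021), without clone 27 (0.91, adjusted p = 0.00058) and without clone 48 (0.51, adjusted p = 0.0097). The calls on both collagen IV genes were lost with either clone left out (adjusted p 0.15 to 0.17). Lama1 held 23.9% of the alpha chain RPKM in flox and 54.5% and 57.9% in KI. Endoderm regulators were higher in KI in 5 of 8 cases (median 2.36), with Sox17 at 2.51 ± 0.33, while Gata4 (-0.39 ± 0.14) and Gata6 (-0.34 ± 0.13) were not called. Visceral endoderm markers summed to 193 CPM in flox and 620.4 to 748 CPM in KI, mesothelial markers to 399 CPM and 21.5 to 59.8 CPM, and trophoblast markers to 736 CPM and 1136 to 1751 CPM. The part of these marker lists was not tested.

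Averaged over the 3 days, 0 of 10 members were called by edgeR or by DESeq2, and 2 had an unadjusted p below 0.05; among all genes 0.398% were called higher and 0.332% lower. Differences between days enter the spread of this average, and for Lama1 the days had opposite signs (-2.26, -3.18 and 1.65). Without the flox library of EB day 10 Lama1 was called (-2.73, adjusted p = 0.010).

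Within KI cells each day has both clones. From ESC to EB day 4, Lamb1 (2.72 ± 0.10), Col4a1 (2.89 ± 0.26) and Col4a2 (3.83 ± 0.26) rose, and Lama1 (-1.55 ± 0.33), Lamc1 (-1.02 ± 0.15) and Nid1 (-3.35 ± 0.31) fell. That is 3 of the 10 members called in each direction, near the 25% of all genes called higher and 22.4% called lower. With the replicate block Hspg2 and Sparc were called as well (0.51 and 0.56, adjusted p 0.047 and 0.036). DESeq2 called Hspg2 higher (0.50, adjusted p = 0.0085) and Nid2 lower (-0.39, adjusted p = 0.033), and edgeR called Hspg2 without the EB day 4 library of clone 48 (0.67, adjusted p = 0.042). The Lama1 call was lost without the EB day 4 library of clone 48 (-1.50, adjusted p = 0.054).

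From EB day 4 to day 10, 9 of 10 members rose in KI, all but Nid2 (0.12 ± 0.15), against 35.4% of all genes higher and 35.1% lower. Nid2 was called higher without the EB day 10 library of clone 27 (0.33, adjusted p = 0.0076). Lama1 rose from 9.69 and 8.87 CPM to 734 and 804 CPM, 6.28 ± 0.37 on the log2 scale. Col4a2 (4.39 ± 0.25), Col4a1 (4.14 ± 0.26) and Nid1 (3.70 ± 0.31) followed. In flox the same interval had no test, with 86.0 and 245 CPM for Lama1, 334 and 807 CPM for Col4a1, and 367 and 966 CPM for Nid2.

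In neural cultures most members were lower in KI on both days. On day 8, 6 were called lower and 1 higher, against 13.2% and 6.3% of all 16439 genes tested, with a median log2 difference of -0.88 against 0.00 for all genes. Lama1 was the member that rose, from 122 and 122 CPM in flox to 197 and 169.7 CPM in KI (0.62 ± 0.13, adjusted p = 0.0057). Lamb1 fell from 82.9 and 80.5 CPM to 41.0 and 39.8 CPM (-0.98 ± 0.22, adjusted p = 0.015), and Lamc1 was not called (157 and 150.2 against 128 and 126 CPM, -0.24 ± 0.11, adjusted p = 0.17). Lama1 thus held 54.5% and 54.3% of the alpha chain RPKM in flox and 71.4% and 69.7% in KI.

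Collagen IV, both nidogens and Sparc also fell at neural day 8. Col4a1 went from 259 and 255 CPM to 107 and 138 CPM (-1.03 ± 0.15) and Col4a2 from 199 and 206 CPM to 104 and 127 CPM (-0.78 ± 0.12). Nid1 fell from 48.8 and 49.9 CPM to 23.8 and 18.7 CPM (-1.18 ± 0.15), Nid2 from 106 and 108 CPM to 54.0 and 42.0 CPM (-1.12 ± 0.12), and Sparc from 154 and 154 CPM to 73.2 and 67.3 CPM (-1.10 ± 0.11, adjusted p = 1.6e-05). None of these 5 genes overlapped between genotypes in the 4 libraries. Hspg2 (313 and 311 against 267 and 262 CPM) was not called (adjusted p = 0.33). Without any 1 of the 4 libraries Lamb1 was no longer called (adjusted p 0.075 to 0.11), and Lama1 was not without clone 27 (0.078).

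By neural day 16, 9 of 10 members were called lower in KI, against 19.7% of all genes lower and 27.1% higher. Hspg2 changed most, from 458 and 589 CPM in flox to 96.4 and 76.0 CPM in KI (-2.40 ± 0.14, adjusted p = 1.1e-07), or 5.29-fold lower. Lamb1 fell from 278 and 295 CPM to 97.1 and 52.6 CPM (-1.74 ± 0.22) and Sparc from 450.0 and 439 CPM to 139.8 and 109.6 CPM (-1.63 ± 0.11). Nid2 (130.2 and 141 against 47.1 and 38.8 CPM) was also lower (-1.46 ± 0.12). The genotypes did not overlap for any of these genes.

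The remaining members called lower at neural day 16 fell by smaller amounts: Col4a1 (-0.93 ± 0.15), Lamc1 (-0.87 ± 0.11), Nid1 (-0.85 ± 0.14), Col4a2 (-0.67 ± 0.11) and Lama1 (-0.55 ± 0.14). Lama1 was 68.0 and 75.1 CPM in flox and 49.9 and 35.2 CPM in KI, and its call was lost without the second flox library (-0.47, adjusted p = 0.065) or clone 48 (-0.33, adjusted p = 0.053). Thbd stayed between 0.317 and 0.537 CPM in all 4 libraries. Lama5 was lower too (-3.92 ± 0.13 on the log2 scale), and its share of the alpha chain RPKM was 28.1% and 32.2% in flox and 3.68% and 4.48% in KI.

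The change of the KI difference from neural day 8 to day 16 was called for 4 members, all towards lower in KI, where 14% of all genes were called lower and 19.2% higher: Hspg2 (-2.20 ± 0.18), Lama1 (-1.17 ± 0.19), Lamc1 (-0.63 ± 0.16) and Sparc (-0.53 ± 0.15, adjusted p = 0.017). The Sparc call was lost without either flox library of day 8 or without clone 27 of day 8 (adjusted p up to 0.067). With the replicate block Lamb1 was called as well (-0.82, adjusted p = 0.019). Lamb1 was also called without clone 27 of day 16 (-1.24, adjusted p = 0.00012) and without clone 48 of day 16 (-0.40, adjusted p = 0.045). Nid1 was called in the other direction without clone 48 of day 16 (0.55, adjusted p = 0.036), and Nid2 was called lower without clone 48 of day 8 (-0.50, adjusted p = 0.047). Between the days themselves, 7 members rose and 1 fell in flox (38.4% and 38.7% of all genes), and 4 rose and 2 fell in KI (40.7% and 39.2%). In flox the Col4a2 call was lost without the first or the second day 8 library (adjusted p = 0.121 and 0.067) or the second day 16 library (0.127), and the Nid2 call without the first day 8 (0.059) or the second day 16 library (0.078). In KI the Col4a2 call was lost without clone 27 of day 8 (0.0506). Nid1 rose in both (2.11 ± 0.15 and 2.44 ± 0.15), and Lama1 fell in both (-0.74 ± 0.13 and -1.91 ± 0.14). Hspg2 rose in flox (0.78 ± 0.13) and fell in KI (-1.42 ± 0.13).

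Markers of other cells moved with the neural differences. At day 8 endothelial markers summed to 130.2 to 132 CPM in flox and 22.6 to 30.2 CPM in KI, with 8 of 8 called lower, and fibroblast markers to 371 to 373 CPM and 142 to 195 CPM, with 5 of 8 lower. Gata4 was at -2.51 ± 0.17. At day 16 fibroblast markers summed to 4083 to 4263 CPM in flox and 942 to 1185 CPM in KI, with 8 of 8 called lower, and mesothelial markers to 73.0 to 76.0 CPM and 4.81 to 7.92 CPM, with 4 of 4 lower. All 4 neuron markers were called higher in KI at day 16 (2210.0 to 2419 CPM in flox, 3382 to 3800.3 CPM in KI). Their part in the members' differences was not tested.

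Other matrix genes were lower as well at neural day 16: 12 of 13 genes of collagen modification and secretion (median -1.33, P4ha2 -2.54 ± 0.17), 11 of 18 further basement membrane and matrix genes with 1 higher (Tinagl1 -4.70 ± 0.29), 8 of 10 proteases and inhibitors with 1 higher, and 7 of 11 receptors with 1 higher. On day 8 the first of these lists had 3 of 13 lower (median -0.09), and the further matrix genes 10 of 18 lower and 1 higher.

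In whole embryos several members were slightly higher in KI than in control. At E8.5, 4 of 10 were called higher, against 3.63% of all 15436 genes higher and 1.83% lower: Lamb1, Lamc1, Nid1 and Nid2. Nid1 was 63.5, 76.8 and 55.3 CPM in the control embryos and 111, 96.7 and 138 CPM in KI (0.82 ± 0.15, adjusted p = 0.013). Nid2 was 219, 197 and 197 CPM in control and 257, 249 and 287 CPM in KI (0.38 ± 0.07, adjusted p = 0.0016). Lamc1 was 299.8, 253 and 249.7 CPM against 337, 303 and 373 CPM (0.34 ± 0.07, adjusted p = 0.0074). For these 3 genes no KI embryo overlapped the controls, while for Lamb1 (0.24 ± 0.07, adjusted p = 0.041) 1 KI embryo lay within their range.

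Titles give KI and control embryos of E8.5 shared numbers, and with these as a replicate block Nid1 was not called (0.81, adjusted p = 0.067) and Hspg2 was (0.33, adjusted p = 0.027). Hspg2 was also called by DESeq2 (0.35, adjusted p = 0.014) and without the first or the second KI embryo (adjusted p = 0.032 for both), and Thbd was called higher without the second KI embryo (1.00, adjusted p = 0.0084). Lamb1 kept its call in 1 of the 6 fits that left out an embryo (adjusted p up to 0.23), Lamc1 in 4 and Nid1 in 5. Lama1 was 128, 102 and 115 CPM in control and 91.6, 99.8 and 113 CPM in KI (-0.18 ± 0.12, adjusted p = 0.50). Markers of endoderm and of other cells also differed at E8.5. Sox17 (0.90 ± 0.15) and Gata6 (0.60 ± 0.10) were called higher, and Gata4 was not called (0.66 ± 0.19, adjusted p = 0.077). Stra6 of the parietal endoderm list (-0.77 ± 0.10) and mesothelial Upk1b (-1.65 ± 0.43) were called lower. So were Map2 of neurons (-1.09 ± 0.20) and Nes of neural progenitors (-0.46 ± 0.11). Trophoblast markers summed to 605 to 754 CPM in control and 924 to 1113 CPM in KI (2 of 7 tested called higher, Hand1 at 1.32 ± 0.30), endothelial markers to 268 to 324 CPM and 364 to 526 CPM (4 of 8 higher), and fibroblast markers to 590.1 to 806 CPM and 819 to 1569 CPM (0 of 8 called). None of these sums overlapped between genotypes, and their part was not tested.

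At E9.5, 5 members were called higher in KI, against 14.6% of all genes higher and 14.9% lower. Lamb1 was 168, 177 and 177 CPM in control and 254, 272 and 262 CPM in KI (0.59 ± 0.07, adjusted p = 3.5e-06). Lamc1 was 217, 233 and 219.8 CPM in control and 337, 352 and 339.8 CPM in KI (0.62 ± 0.07, adjusted p = 3.9e-06). In both, every KI embryo lay above every control.

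Nid2 at E9.5 was 145, 155 and 158 CPM in control and 212, 219 and 195 CPM in KI (0.45 ± 0.07). Hspg2 was 341, 395 and 328 CPM against 447, 469.9 and 458 CPM (0.37 ± 0.10, adjusted p = 0.016), a call lost without the first or the third control embryo (0.052 and 0.061). Nid1 was 110.5, 128 and 100.4 CPM against 139, 157 and 173 CPM (0.46 ± 0.15, adjusted p = 0.042), and kept its call in 2 of 6 fits that left out an embryo. With the shared title numbers as a replicate block Nid1 was not called (0.46, adjusted p = 0.125). The collagen IV genes overlapped: Col4a1 was 438, 506 and 377 CPM in control and 442, 477 and 423 CPM in KI (0.02 ± 0.14, adjusted p = 0.93), and Col4a2 had a difference of 0.06 ± 0.11. Lama1, Sparc and Thbd overlapped too and were not called.

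The KI difference was larger at E9.5 than at E8.5 for 1 member, Lamb1 (0.35 ± 0.10, adjusted p = 0.034), against 3.39% of all genes with a called higher and 3.24% with a called lower change. That call was lost in 7 of the 12 fits without 1 embryo (adjusted p up to 0.089). Without the second E8.5 KI embryo the KI difference of Thbd was called lower at E9.5 than at E8.5 (-0.99, adjusted p = 0.046). From E8.5 to E9.5 in control embryos 4 members rose (Nid1 0.73 ± 0.15, Thbd 0.84 ± 0.26, Col4a2 0.46 ± 0.11, Hspg2 0.35 ± 0.10) and 3 fell (Lamb1 -0.53 ± 0.07, Nid2 -0.48 ± 0.07, Lamc1 -0.32 ± 0.07), against 12.2% and 12.1% of all genes. In KI embryos 2 rose (Col4a2 and Hspg2) and 2 fell (Nid2 and Lamb1), against 15.9% and 16.6%. In control the Thbd call was lost in 5 of the 6 fits without 1 embryo (adjusted p 0.052 to 0.083) and the Hspg2 call in 4 (0.058 to 0.116). In KI the Lamb1 call was lost in 5 of 6 (0.052 to 0.189), the Col4a2 call in 4 (0.070 to 0.091) and the Hspg2 call in 3 (0.0504 to 0.065). Calls gained in KI were Lama1 without the third E9.5 embryo (0.38, adjusted p = 0.0062), and Nid1 without the third E8.5 embryo (0.50, adjusted p = 0.017) and by DESeq2 (0.36, adjusted p = 0.018).

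Other matrix genes in E9.5 embryos were also higher in KI, including 11 of 13 genes of collagen modification and secretion (median 0.32, P4ha2 1.71 ± 0.18), 5 of 8 other laminin chains (median 0.55) and 7 of 18 further matrix genes, with 1 of each of the last 2 lists lower. Marker lists moved too. All 4 neuron markers were lower in KI at E9.5 (133 to 206 CPM in control, 32.6 to 37.2 CPM in KI), and 4 of 8 endoderm regulators were higher, Gata6 at 1.70 ± 0.10. At E8.5, but without a statement on E9.5, visceral endoderm markers ranged widely among embryos of a group, from 76.0 to 599.9 CPM in control and from 20.1 to 466 CPM in KI. Endothelial markers summed to 304 to 342 CPM in E9.5 control and 379 to 435 CPM in KI, and trophoblast markers to 175 to 382 CPM and 589 to 619 CPM, with 4 of 7 tested called higher (Hand1 2.01 ± 0.31). The part of these in the members' differences was not tested.

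Among themselves, the members were most alike in the collagen IV pair, with a Pearson correlation of 0.99 between Col4a1 and Col4a2 over the 18 group means of log2(CPM + 0.5). Lama1 was least like the others (median correlation 0.35, highest 0.54 with Col4a1). The next most alike pairs were Lamb1 with Col4a1 (0.90), Lamb1 with Sparc (0.88), Lamb1 with Col4a2 (0.87) and Lamc1 with Hspg2 (0.85). These points share stem cell lines, library kinds and depth, and no p is given. The RPKM ratio of Col4a1 to Col4a2 still ran from 0.759 in KI neural day 16 to 2.88 in KI ESCs.

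**Figure D4:**
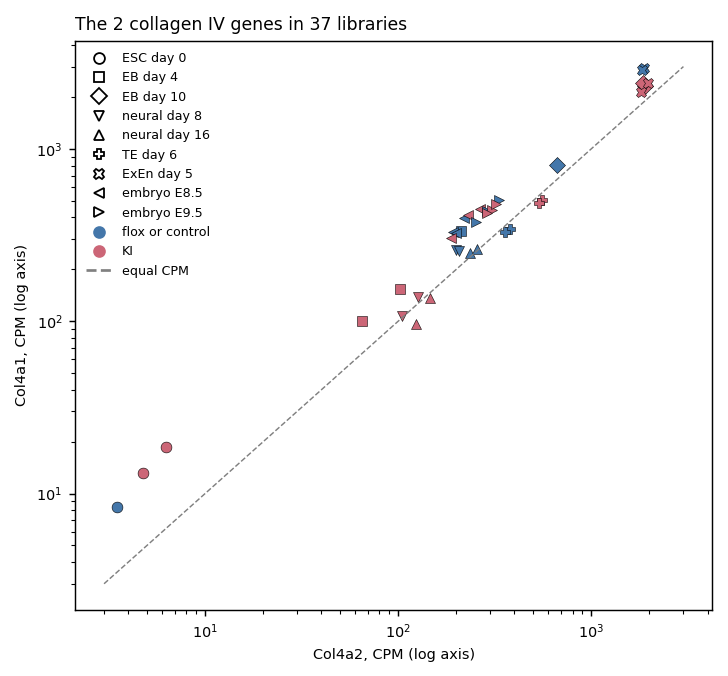
CPM of Col4a1 against Col4a2 (log axes) in the 37 libraries; symbols give the culture or stage, blue flox or control, red KI, and the dashed line equal CPM. Points run from 3.49 CPM of Col4a2 in flox ESCs to 1955 CPM in KI ExEn, and TE and KI neural day 16 libraries lie under or near the line.

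Of Gata4, Gata6 and Sox17, Gata6 was most like the collagen IV genes (0.86 with Col4a1, 0.83 with Col4a2), and Gata4 most like Lama1 (0.61). Nid1 had correlations between -0.17 and 0.17 with Gata4, Gata6, Sox17, Plat, Pdgfra and Pth1r. Among genes outside the list with a mean of at least 5 CPM, the 8 whose profile over the 18 groups was most like the mean standardised profile of the members were Rela (0.96), Furin (0.94), Ikbip, Lpp, Itgb1, Ccn2, Ptgs2 and Lmod1 (0.93 to 0.91). Rela encodes a subunit of NF-kappaB, Furin a proprotein protease and Itgb1 the integrin beta chain of most laminin and collagen receptors. Itgb1 ran from 75.0 CPM in KI neural day 16 to 1480.2 CPM in flox ExEn.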

How the data were processed

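The RNA tables of 37 libraries in 18 groups were analysed. The 63 further samples of the series, among them the neural day 8 DKO RNA sample, were not analysed here. Per the labels' protocols, poly(A) RNA was selected and libraries were made with a NEBNext Ultra II kit, but the ExEn, TE and embryo samples are labelled total RNA, a conflict the labels do not settle. Per the file headers, each deposited table gives a read count and an RPKM per transcript. The submitters' processing notes name bcl2fastq, Bowtie2, STAR, SICER 1.1 and mm9, with no role; the counting tool, the annotation and the use of strand are not given in the sources used here, so overlapping genes, such as Col4a1 and Col4a2 at their starts, may share reads. The deposited RPKM values equalled the count divided by a factor per transcript and a factor per library, to within a relative 6.21e-12. Transcript lengths were not checked. The library factor did not follow the table total. Relative to that total, with flox ESCs set to 1, it ran from 0.866 (flox EB day 10) to 1.11 (clone 48, neural day 8).

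Of 29082 transcripts, 28436 were matched to a gene symbol, and the transcript with most reads stood for each of 23109 genes. CPM used the gene-level total, 18908148 to 59880727 reads per library. The quasi-likelihood test of edgeR 4.0.16 under R 4.3.3 was run on the counts (TMM factors, robust fit, genes kept by filterByExpr at a minimum of 10 reads) in 4 families (ESC and EB, neural, TE with ExEn, embryos), with Benjamini-Hochberg adjustment over all genes of a family's comparison. DESeq2 1.42.0 was an alternative. Intervals from counts cover counting error only.

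The members and lists were chosen with earlier results of these data known. Outside the members, the genes named are, per list and comparison, the called gene with the largest change in each direction, plus Gata4, Gata6, Sox17, Plat, Pth1r, Pdgfra, Kmt2c and Kmt2d, and the 8 genes most like the mean of the standardised member profiles. Clones 27 and 48 pair the KI groups as the same cell lines. Embryos of both stages share title numbers between KI and control. At E8.5 same-numbered deviations had correlations from 0.209 to 0.444, and other-numbered ones from -0.339 to 0.0185. At E9.5 the ranges were -0.034 to 0.168 and -0.196 to -0.0119, which overlap, so a pairing there was weaker. Promoter sequences are RefSeq's, GRCm38.p6.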

Additional observations from a re-analysis of the deposited data

Results flagged for a closer look

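For 12 results the KI difference itself differed between 2 cultures or stages, by edgeR's interaction test with adjusted p below 0.05. From TE to ExEn the KI difference moved by -1.61 (log2) for Nid1, -1.42 for Thbd, -1.11 for Lamb1, -0.98 for Col4a1, -0.86 for Lamc1, -0.61 for Col4a2 and 0.42 for Hspg2. From neural day 8 to day 16 it moved by -2.20 for Hspg2, -1.17 for Lama1, -0.63 for Lamc1 and -0.53 for Sparc. From E8.5 to E9.5 it moved by 0.35 for Lamb1. In Lamb1, Col4a1 and Nid1 the difference had opposite called signs in TE (higher in KI) and ExEn (lower in KI), and in Lama1 on neural days 8 (higher) and 16 (lower).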

How the results depend on the processing

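No member's log2 difference changed sign past the test under any alternative run. Requiring a change of at least 2-fold cut the members called from 7 to 4 (neural day 8), 9 to 4 (neural day 16), 4 to 2 (change between the neural days), 8 to 3 (neural days in flox), 9 to 4 (TE), 6 to 1 (ExEn), 7 to 3 (ExEn against TE), and to 0 for E8.5 (from 4), E9.5 (from 5), their difference (from 1) and the embryonic days in control (from 7) and KI (from 4). With the E8.5 libraries fitted alone 2 of 4 calls were left (Lamb1 and Nid1 lost, adjusted p = 0.056 and 0.057), and with the neural day 8 libraries alone Lamc1 (-0.24, adjusted p = 0.014) and Hspg2 (-0.21, adjusted p = 0.026) were called as well. Without the low-count filter 2 of 4 calls were left at EB day 4 (Col4a1 and Col4a2 lost, adjusted p = 0.074 and 0.060), and calls were also lost on Lamb1 at neural day 8 (0.074), Nid1 at E9.5 (0.091), Col4a2 between the embryonic days in KI (0.058) and Col4a1 at EB day 10 (0.058). With the reads of a gene's transcripts summed, calls were lost on Lamb1 at E8.5 (0.054), Lamb1 between the embryonic days in KI (0.055) and Col4a2 between the neural days in flox (0.052), and gained on Lama1 at EB day 10 (0.048) and on Lama1 and Nid2 for ExEn against TE (0.043 and 0.036). The mean over the EB course went from 0 to 2 in a fit with 6 group means (Lama1 -1.26, adjusted p = 0.021; Nid2 -0.51, adjusted p = 0.033). Without 1 library, the members called ranged from 5 to 6 (neural day 8), 8 to 9 (neural day 16), 3 to 6 (change between the neural days), 6 to 8 and 5 to 6 (neural days in flox and KI), 8 to 8 (TE), 6 to 8 (ExEn), 7 to 10 (ExEn against TE in the KI difference), 10 to 10 (ExEn minus TE, both genotypes), 2 to 6 (E8.5), 3 to 5 (E9.5), 0 to 1 (their difference), 5 to 6 and 1 to 4 (embryonic days in control and KI), 1 to 1 (ESC), 0 to 2 (EB day 4), 3 to 3 (EB day 10), 6 to 6 and 9 to 10 (EB days in KI), and 0 to 1 (EB mean). The cause was not tested.

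With the replicate block the members called were 9 in place of 7 (ExEn against TE), 5 in place of 4 (neural days), 8 in place of 6 (ESC to EB day 4), 4 at E8.5 and 4 in place of 5 at E9.5, where Nid1 was lost (adjusted p = 0.125); elsewhere the block left the count as it was. No paired analysis was possible for KI against flox in cells, because these groups share no replicate numbers. Over all genes, calls at EB day 4 went from 1276 to 188 or 159 without a clone, at EB day 10 from 1732 to 4548 or 4952, in ESCs from 1972 to 438 or 604, and in the EB mean from 121 to 777 by DESeq2 and 1681 with 6 group means; without a flox library they went from 5520 to 3641 or 3651 in ExEn and from 3202 to 1950.0 or 1896 at neural day 8; at E8.5 the block raised them from 843 to 1321. Single flox libraries limit the ESC and EB tests, and 2 libraries (3 embryos) a group the others. Thbd had as few as 8 reads in a library (flox ESCs).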
